A study of Homo sapiens with 12 samples.

Results

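The cytosolic ribosomal protein genes were followed in the colorectal adenocarcinoma cell line DLD-1 after auxin was added to remove SPT6 or PAF1; neither protein was measured. Members were the human rows of the count table whose name is RPL or RPS followed by a number (with or without A, X or L), or RPLP0, RPLP1, RPLP2 or RPSA. That gave 81 of 60666 human genes: 32 of the small subunit (RPS names) and 49 of the large subunit (RPL names). All 81 passed the filter on low counts, which kept 20791 human genes. There were 6 groups of 2 libraries: auxin for 0, 2 or 6 h in SPT6-AID cells, numbered replicates 1 and 2, and for the same times in PAF1-AID cells, numbered 3 and 4. Every group, the 0 h ones included, constitutively expressed OsTIR1, the plant receptor that lets 500 µM auxin direct an auxin-inducible degron (AID) tagged protein to destruction. SPT6 handles histones at elongating RNA polymerase II, and PAF1 belongs to a separate elongation complex. The labels do not say whether each line is 1 clone or whether the 2 libraries of a group were separate cultures, so p-values cover only library-to-library spread, which could be technical. No auxin-treated cells without a tag were among the samples, so depletion and auxin itself cannot be told apart.

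Each ribosome carries a single copy of nearly every ribosomal protein, so these proteins are made in matched amounts. Their mRNAs are short, abundant and long-lived. They typically begin with a cytosine followed by a run of pyrimidines, the terminal oligopyrimidine (TOP) motif, through which LARP1 and mTOR complex 1 control their stability and translation. Many have intronless processed copies elsewhere in the genome, which can take reads from the parent gene.

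The sequence around the start is shown for members that the results turn on and for 2 pairs of parent and paralog (RPS27 with RPS27L, RPL10 with RPL10L). Each window runs from 35 bases before to 15 bases after the first base of the transcript, 5′ to 3′, from RefSeq on GRCh38.p14. Capitals mark the run of pyrimidines that starts at the first transcribed base with a C, and a window with no capitals has no such run.
RPL22, chr1:6199581-6199630, minus strand: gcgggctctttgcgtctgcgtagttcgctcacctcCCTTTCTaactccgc
RPLP1, chr15:69452783-69452832, plus strand: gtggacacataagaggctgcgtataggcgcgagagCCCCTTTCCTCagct
RPS6, chr9:19380222-19380271, minus strand: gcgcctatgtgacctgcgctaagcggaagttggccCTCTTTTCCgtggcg
RPL36A, chrX:101390976-101391025, plus strand: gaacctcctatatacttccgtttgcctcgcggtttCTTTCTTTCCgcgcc
RPS27, chr1:153990727-153990776, plus strand: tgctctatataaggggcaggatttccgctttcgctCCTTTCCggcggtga
RPS27L, chr15:63157463-63157512, minus strand: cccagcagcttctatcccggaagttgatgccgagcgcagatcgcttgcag
RPL10, chrX:154398342-154398391, plus strand: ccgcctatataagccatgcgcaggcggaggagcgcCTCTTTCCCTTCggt
RPL10L, chr14:46651767-46651816, minus strand: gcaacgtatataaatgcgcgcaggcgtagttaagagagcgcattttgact
Of the 81 members, 64 had a RefSeq start window, and 46 of these (71.9%) began with a C followed by at least 4 pyrimidines, against 1358 of 27241 other genes (4.99%). The paralog RPS27L and the intronless RPL10L lacked the run that RPS27 and RPL10 carry. TATA stood, on the strand of the gene, between 40 and 16 bases before the start in 12 members (18.8%), against 7.77% of other genes. CCGGAAG, searched on both strands from 250 bases before to 50 bases after the start, was present in 23 members (35.9%), against 12.1% of other genes. AAGATGGCG, searched the same way, was present in 5 members (7.81%), against 2.12% of other genes. For each motif a gene counted if any of its RefSeq start windows held it. The other genes were all others with a window, expressed here or not. These are matches of letters only.

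Total counts ran from 31957953 to 115904780 per library. The epithelial genes EPCAM (778 to 1080 CPM, counts scaled to a common library size, over the 12 libraries), KRT8 (927 to 2239 CPM) and CDX2 (129 to 321 CPM) were high, VIL1 was at 0 to 0.239 CPM, and the blood and stroma genes PTPRC, CD3E and COL3A1 were at or under 0.239 CPM. CD14 reached 1.30 CPM, PECAM1 1.22 CPM and COL1A1 3.33 CPM. CPM here is scaled by the trimmed mean of M-values (TMM).

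The members differed widely in level. Per kilobase of the deposited transcript length, and averaged over the 4 libraries at 0 h, the highest were RPS12 (1075 CPM per kb), RPS2 (865 CPM per kb), RPL8 (702 CPM per kb), RPS6 (494 CPM per kb) and RPS18 (455 CPM per kb). Among the lowest were RPL10L (0.430 CPM per kb), RPL3L (0.937 CPM per kb), RPL36A (1.42 CPM per kb) and RPS27L (3.07 CPM per kb). RPL10L, RPL3L and RPS27L are paralogs of core genes, and RPL10L and RPL3L are known from testis and striated muscle. RPL36A encodes a core ribosomal protein. The order depends on the length used: per kilobase of coding sequence the highest were RPL41 (2671 CPM per kb), RPS2 (2349 CPM per kb) and RPL12 (2192 CPM per kb), while RPL10L, RPL3L and RPL36A were the 3 lowest by either length.

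Many members shared counts with processed copies. The table had 1288 rows named as pseudogenes of members, belonging to 77 members, and they held 7024100 counts against 27951200 counts on the member rows (20.1% of both). The share on the copies was 90.6% for RPL36A, 83.2% for RPS3A, 82.3% for RPL17, 71.5% for RPS15A and 69.7% for RPS10. High rows had large shares too, such as RPL7 (64.4%), RPL9 (62.6%) and RPSA (56.4%), which were chosen after their values were seen. For RPLP1 it was 0.0983%, and RPL10L, RPL3L, RPL39L and RPS27L had no such rows. Part of the exons of RPS10 (39.4% of bases), RPL17 (24.8%) and RPL36A (8.40%) also lay in annotated genes of the same strand, such as read-through genes, whose rows held 0 counts. How the counting treated reads that fit several places is not given in the sources used here, so the levels of these rows are uncertain.

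Members made up 3.67% and 4.70% of human counts in SPT6-AID cells at 0 h (replicates 1 and 2), 3.90% and 5.03% at 2 h, and 4.45% and 6.30% at 6 h. The widest exact 95% binomial interval, that of replicate 2 at 6 h, was 6.29% to 6.31%, and covers counting error only. Replicate 2 was above replicate 1 at every time, and replicate 1 at 6 h (4.45%) was below replicate 2 at 0 h (4.70%). The group means were 4.18% ± 0.726 at 0 h, 4.47% ± 0.798 at 2 h and 5.37% ± 1.31 at 6 h (SD, n = 2). In PAF1-AID cells the shares were 3.71% and 4.39% at 0 h (replicates 3 and 4), 3.97% and 4.20% at 2 h, and 4.22% and 4.30% at 6 h. The means were 4.05% ± 0.478, 4.08% ± 0.168 and 4.26% ± 0.0584 (SD, n = 2). With 2 libraries against 2, an exact two-sided permutation test cannot go below p = 0.333, so the shares were not tested. Counts in members per fly count ran the other way: the group means were 0.931, 0.905 and 0.865 at 0, 2 and 6 h in SPT6-AID cells, and 0.931, 0.852 and 0.809 in PAF1-AID cells. The share of fly counts was 5.36% and 6.25% in SPT6-AID cells at 6 h against 4.30% and 4.30% at 0 h. Fewer human cells and less RNA per cell cannot be told apart in bulk samples.

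**Figure D1:**
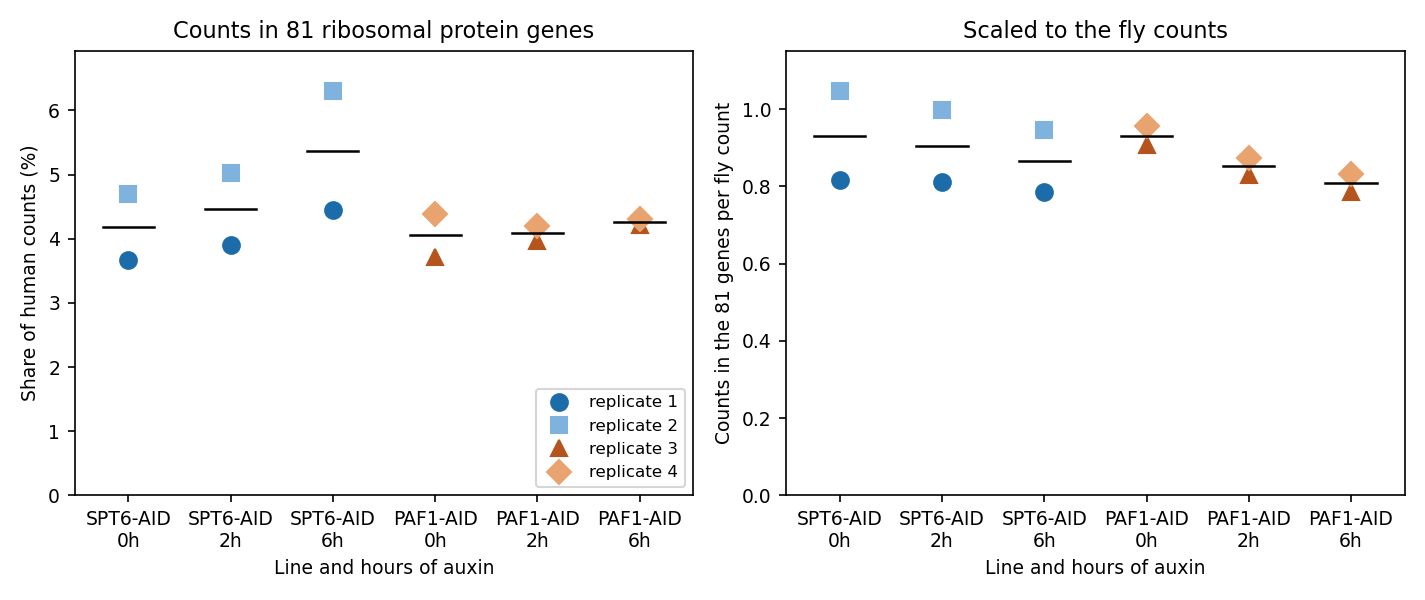
Left, the percentage of human counts in the 81 members in each library, by line and hours of auxin; right, the members' counts per fly count. Bars are the means of 2 libraries. Within each line the left means are highest at 6 h (5.37% in SPT6-AID and 4.26% in PAF1-AID cells). The right means are lowest at 6 h (0.865 in SPT6-AID and 0.809 in PAF1-AID cells). Replicate 2 of SPT6-AID cells stands above replicate 1 throughout. On the left, PAF1-AID replicate 3 goes from 3.71% at 0 h to 4.22% at 6 h, and replicate 4 from 4.39% to 4.30%.

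The spread was shared across the family. The median member was higher in replicate 2 than in replicate 1 by 0.48 (log2) at 0 h, 0.49 at 2 h and 0.68 at 6 h of auxin in SPT6-AID cells, with 77, 78 and 81 of 81 members higher. Over all genes the same medians were -0.02, -0.01 and -0.08. In PAF1-AID cells replicate 4 exceeded replicate 3 by a median of 0.33 at 0 h, 0.08 at 2 h and -0.02 at 6 h, with 77, 67 and 37 of 81 members higher. Only a few members differed little between the SPT6-AID replicates. RPL22 differed by -0.04, -0.15 and 0.05 (log2, replicate 2 minus 1) at 0, 2 and 6 h. RPS2 differed by -0.15, -0.06 and 0.13, and RPL13 by -0.11, -0.01 and 0.09. These 2 were chosen after their values were seen. Averaged over the 3 times, the other TOP mRNAs had a median difference of 0.40 and the ribosomal protein chaperones 0.10. What sets the replicates apart was not tested.

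At 6 h of auxin in SPT6-AID cells, 79 of 81 members had a positive log2 fold change against 0 h, with a median of 0.36 (quartiles 0.32 and 0.41) beside 0.04 over all genes tested, of which 52.2% were positive. Of the members, 1 rose and 1 fell (edgeR quasi-likelihood test, Benjamini-Hochberg adjustment over 20791 genes, threshold 0.05), where 25.2% of all genes were called, 8.76% higher and 16.4% lower (1821 and 3409 genes, or 958 and 5842 with fly totals). DESeq2 called 3 members. The median standard error of a member was 0.26 in this fit, which does not use the replicate number, close to the size of the shift. With fly totals as library sizes the members' median was -0.10 and that of all genes -0.39, so the sign of the members' change depends on the scaling. Relative to all genes the members' median was 0.32 with TMM and 0.29 with fly totals. The members' median also depended on single libraries. It was -0.017 without replicate 2 and 0.71 without replicate 1 at 6 h. It was 0.61 without replicate 2 and 0.13 without replicate 1 at 0 h. Leaving out 1 library makes the replicate numbers unequal, so these values include the difference between replicates (0.48 at 0 h and 0.68 at 6 h). With the replicate number as a block the median was 0.35, with 79 of 81 positive. That fit called 73 members, 72 higher and 1 lower, and 10683 of all genes. The labels do not say that the numbers mark a shared culture. The members' share of human counts was 3.67% at 0 h and 4.45% at 6 h in replicate 1, and 4.70% and 6.30% in replicate 2.

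RPL22, an RNA-binding protein of the large subunit and a tumour suppressor often truncated in mismatch repair-deficient cancers (GRCh38, chromosome 1, 6185020 to 6209389, minus strand), was at 224 and 219 CPM at 0 h, 250.4 and 226 CPM at 2 h, and 279 and 289 CPM at 6 h in SPT6-AID cells. Both 6 h libraries were above both 0 h libraries. It rose by 0.36 ± 0.11 (log2 ± SE, edgeR adjusted p = 0.0350) at 6 h, but its value was -0.079 with fly totals. In PAF1-AID cells it was at 234 and 252 CPM at 0 h, 238 and 256 CPM at 2 h, and 256 and 250.4 CPM at 6 h, groups that overlap (0.06, adjusted p = 0.805 by edgeR). The difference between the lines' 6 h responses, 0.30 ± 0.15, did not pass (edgeR adjusted p = 0.389). The RPL22 call was lost with no filter on low counts (adjusted p = 0.200 by edgeR), with copies added (0.0581), and without SPT6-AID 0h replicate 1, 0h replicate 2, 2h replicate 1 or 6h replicate 2, or either PAF1-AID 2h library (0.0620 to 0.176).

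RPL36A, a large subunit protein, had a negative value at 6 h in both lines. It was at 3.93 and 5.48 CPM at 6 h against 4.68 and 6.32 CPM at 0 h in SPT6-AID cells, and at 2.59 and 4.01 CPM at 2 h. In PAF1-AID cells it was at 3.92 and 3.09 CPM at 6 h against 6.41 and 5.18 CPM at 0 h, with no overlap. None of these passed in the edgeR fit used above: -0.23 ± 0.30 in SPT6-AID cells (adjusted p = 0.624) and -0.73 ± 0.30 in PAF1-AID cells (0.156). In PAF1-AID cells at 6 h RPL36A passed by edgeR with fly totals (-1.13, adjusted p = 0.0296). With the replicate number as a block it passed there (-0.73, edgeR adjusted p = 0.00355) and in SPT6-AID cells at 2 h (-0.74, 0.0112). With its copies added RPL36A was at 38.2 and 68.7 CPM at 6 h against 40.4 and 60.0 CPM at 0 h in SPT6-AID cells, and the values were 0.088 in SPT6-AID and -0.18 in PAF1-AID cells. Once copies were added to every member, all 81 members were positive at 6 h in SPT6-AID cells, up to 0.57 (RPLP1), with a median of 0.38, and 0 passed the edgeR test.

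**Figure D2:**
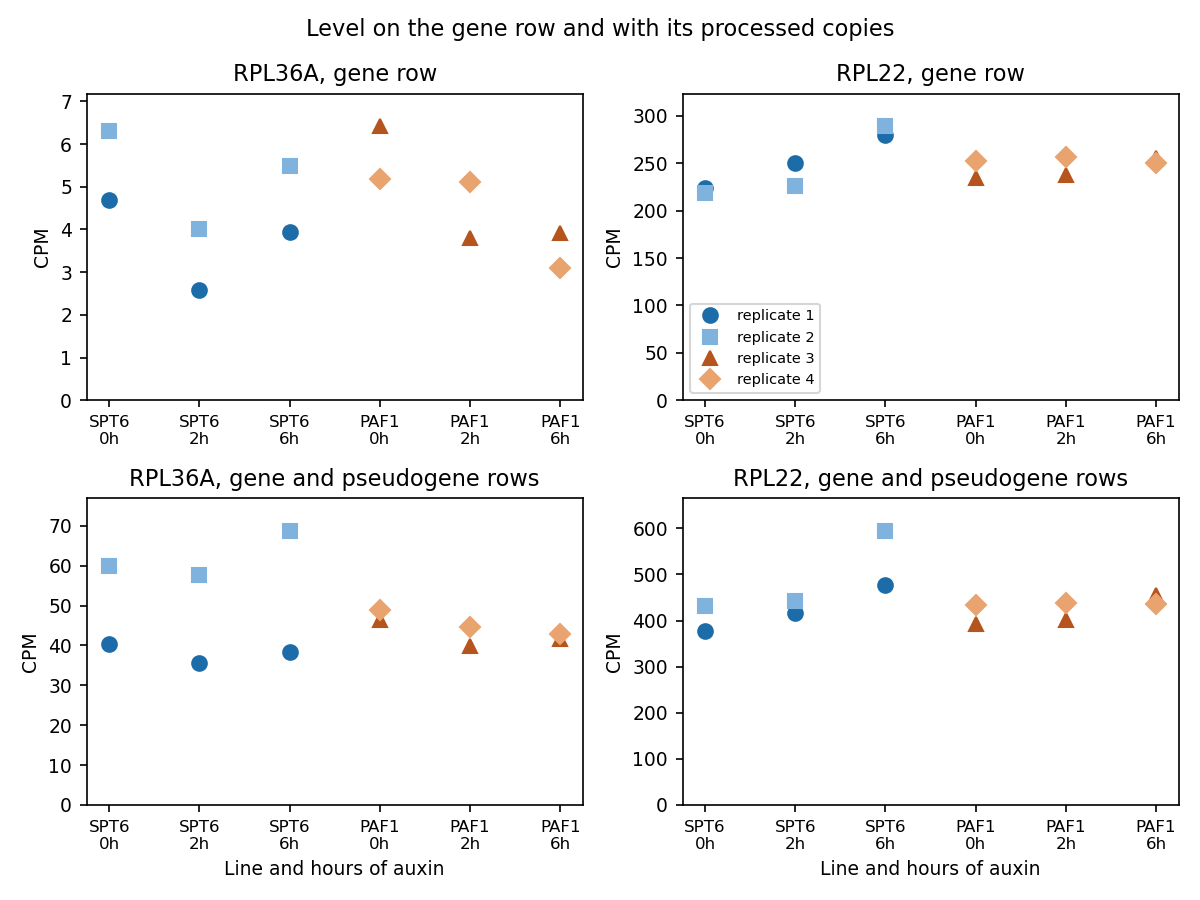
CPM of RPL36A and RPL22 in each library by line and hours of auxin, on the gene row alone (top) and with the counts of their pseudogene rows added (bottom). RPL36A on its own row lies between 2.59 and 6.41 CPM, and its 6 h and 0 h libraries in SPT6-AID cells overlap with the copies added (38.2 and 68.7 against 40.4 and 60.0 CPM).

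The members with the most positive values at 6 h in SPT6-AID cells did not pass in the edgeR fit used above, though they did in some alternatives. RPLP1, which forms the acidic stalk with RPLP0 and RPLP2, was at 816 and 1299 CPM at 6 h against 617 and 823 CPM at 0 h in SPT6-AID cells, so the lower 6 h library lay just below the higher 0 h library. Its value was 0.56 ± 0.25 (edgeR adjusted p = 0.139), and it passed with no filter on low counts (0.0150) and without 6h replicate 1 (0.0313). In PAF1-AID cells RPLP1 was at 840 and 853 CPM at 6 h against 537 and 716 CPM at 0 h (0.43 ± 0.25, adjusted p = 0.318). RPS12, a small subunit protein, was at 728 and 1336 CPM at 6 h against 556 and 899 CPM at 0 h in SPT6-AID cells (0.50 ± 0.32, edgeR adjusted p = 0.290). RPS10 was at 27.0 and 48.2 CPM against 21.7 and 32.1 CPM (0.48 ± 0.30, adjusted p = 0.286). RPS12 passed with no filter on low counts (edgeR adjusted p = 0.0351). With the replicate number as a block RPLP1 (edgeR adjusted p = 0.000166), RPS12 (0.000122) and RPS10 (0.00272) passed. So did RPLP1 in PAF1-AID cells (0.00125). Without 6h replicate 2 the values were 0.0035 for RPS12, 0.0073 for RPS10 and 0.19 for RPLP1, and without 6h replicate 1 they were 0.91, 0.88 and 0.89. RPL17, at 13.6 and 28.0 CPM against 15.02 and 24.1 CPM, had the lowest positive value of 0.09 ± 0.38 and was -0.40 with fly totals. The 5 members with an unadjusted p under 0.05 included RPL22, RPS2, RPS27 and RPS15, where 36.3% of all genes had one. At 6 h 8 members had both libraries above both 0 h libraries, and 1 had both below, where 27.7% and 31.0% of all genes did.

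The stalk genes RPLP0 and RPLP2 were at 1884 and 2853 CPM and at 788.5 and 1126 CPM at 6 h, against 1550.2 and 2009 CPM and 637 and 796 CPM at 0 h in SPT6-AID cells. RPS6, the substrate of S6 kinase, was at 1346 and 2293 CPM at 6 h against 1099 and 1687 CPM at 0 h. RPL5 and RPL11, which bind MDM2 with 5S rRNA, were at 670.5 and 1055 CPM and at 967 and 1607 CPM at 6 h, against 588 and 814 CPM and 806.5 and 1166 CPM at 0 h. In each of these 5 genes, replicate 1 at 6 h lay between the 0 h replicates. Among the paralogs, RPL3L was at 3.22 and 4.78 CPM at 6 h against 2.68 and 3.10 CPM at 0 h, RPL39L at 9.28 and 14.9 CPM against 7.55 and 9.94 CPM, and RPS27L at 30.3 and 40.5 CPM against 25.3 and 30.8 CPM. Their parents RPL3 (1168 and 1707 against 988 and 1293 CPM) and RPL39 (173 and 282 against 142 and 200.4 CPM) stood much higher. RPL10L stayed between 0.193 and 0.559 CPM in SPT6-AID cells, and its parent RPL10 was at 629 and 980 CPM at 6 h against 518 and 718 CPM at 0 h.

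**Figure D3:**
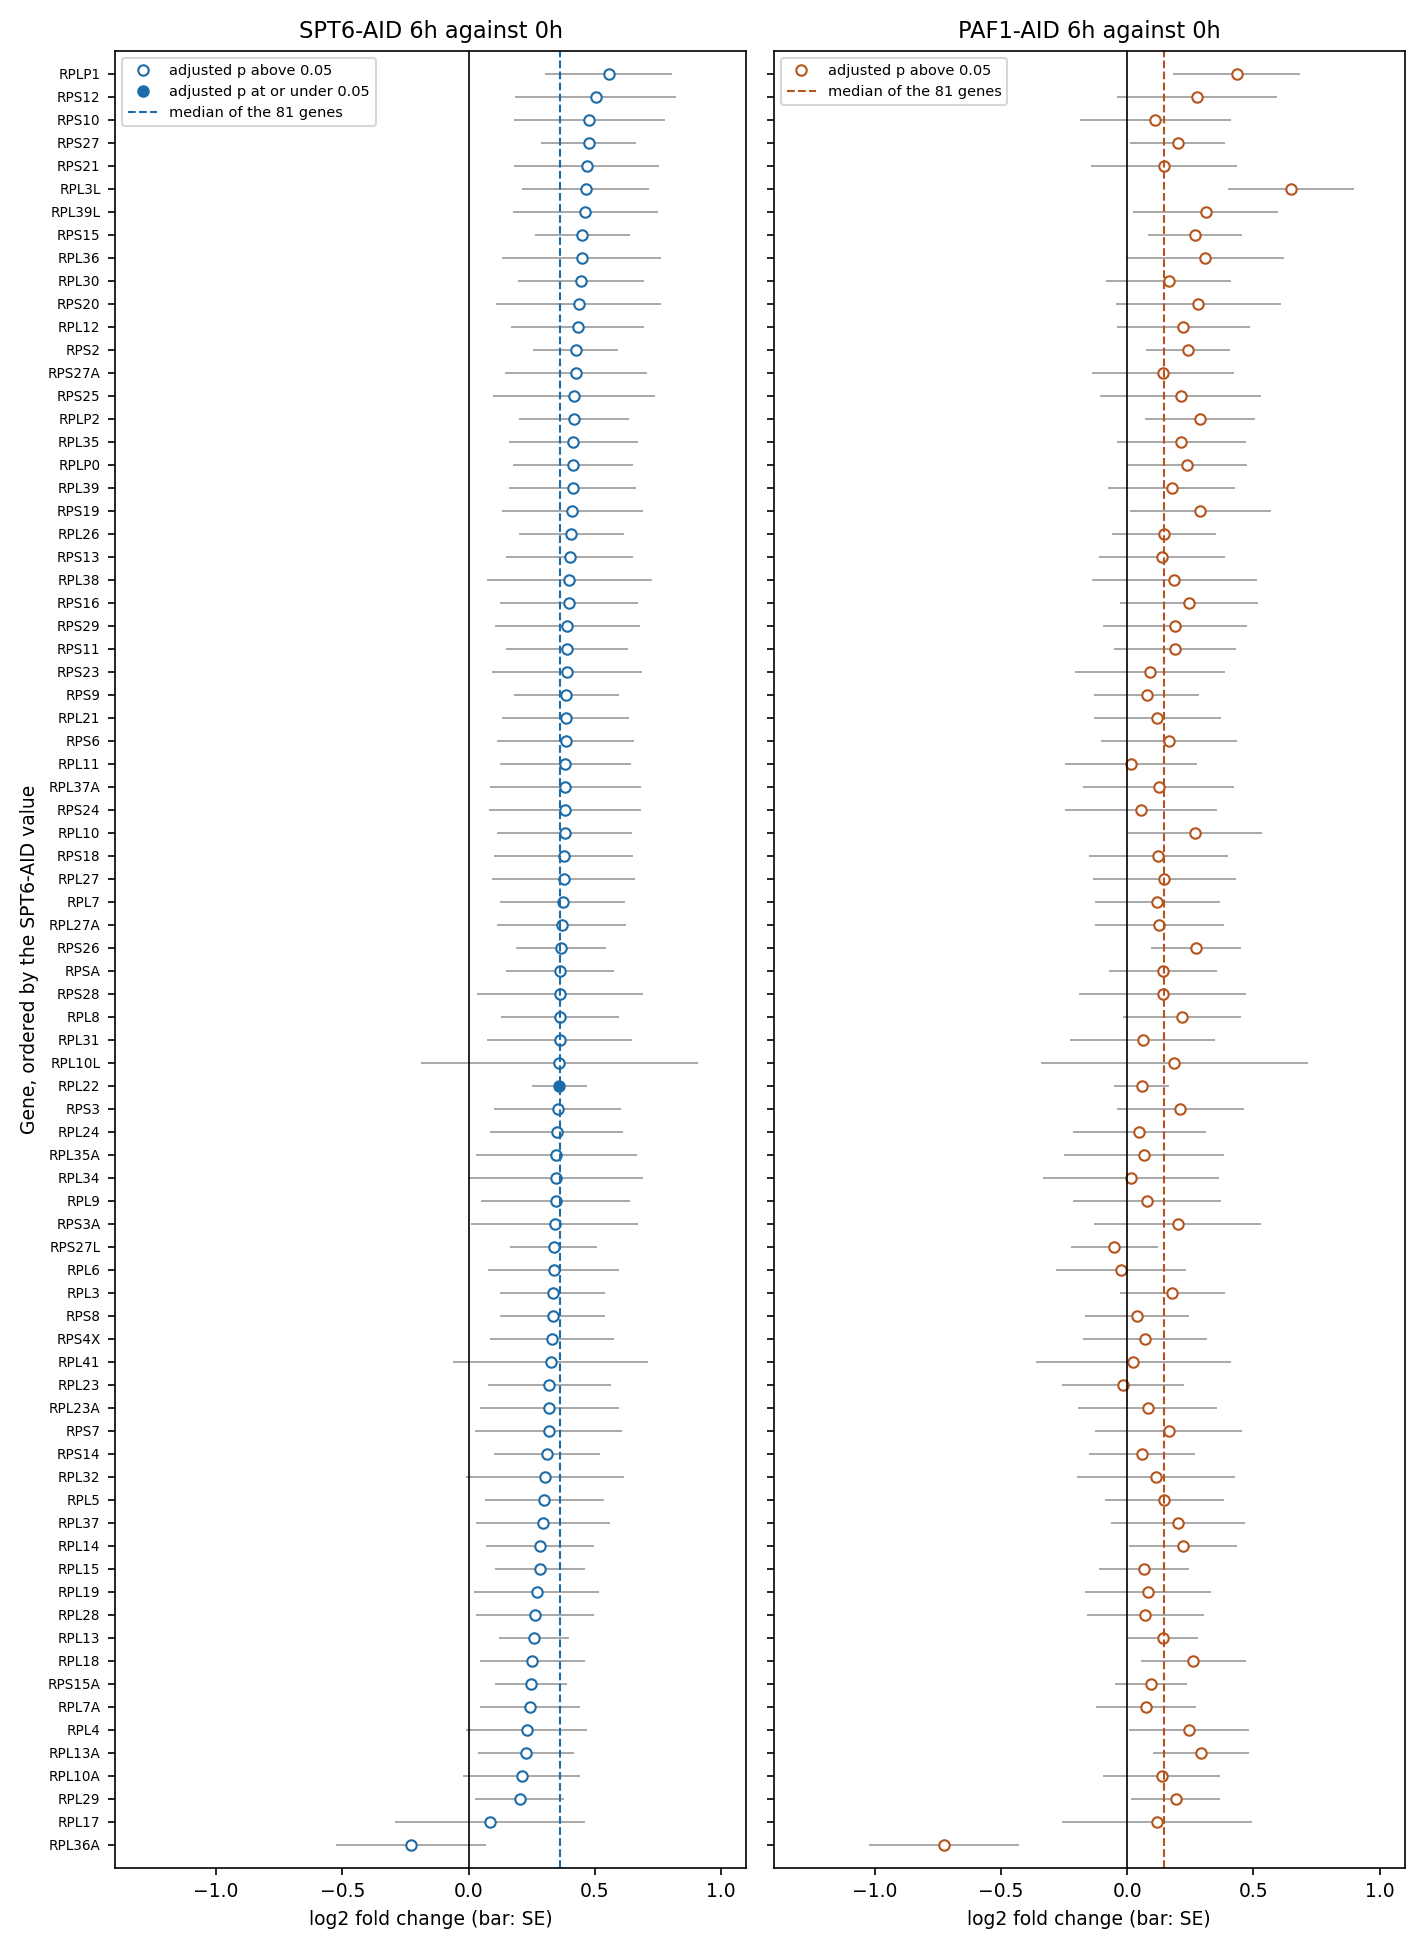
Log2 fold change of 78 of the 81 members at 6 h against 0 h in SPT6-AID cells (left) and PAF1-AID cells (right), with the standard error as a bar and filled points for adjusted p at or under 0.05. Standard errors and adjusted p are from the edgeR fit without the replicate number as a block. RPL22 is filled on the left and no point on the right; the dashed medians of all 81 are 0.36 and 0.15, and both medians are negative with fly totals (-0.10 and -0.23).

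At 2 h of auxin in SPT6-AID cells 0 of 81 members passed the edgeR test, where 0.548% of all genes were called (18 higher and 96 lower, or 10 and 23 with fly totals). An unadjusted p under 0.05 was found for 2 members, RPL36A among them, and 7.42% of all genes. By DESeq2 1 member passed (lower), as did 509 of all genes. With the replicate number as a block 2 members were called, both lower, and 1613 of all genes. The median was 0.08 (0.01 over all genes; -0.05 with fly totals), with 76 members and 52.3% of all genes positive. Its sign turned on single libraries. The median was -0.19 with 7 members positive without 2h replicate 2, and -0.14 with 10 positive without 0h replicate 1. It was 0.30 without 2h replicate 1 and 0.34 without 0h replicate 2. These values include the difference between replicates 1 and 2 as well. RPL36A had a value of -0.73 ± 0.30 and RPL10L, with under 1 CPM, -0.48 ± 0.54. The most positive were RPL39L (0.28), RPS15 (0.23) and RPL3L (0.22). From 2 to 6 h the median was 0.27 (0.02 over all genes; -0.06 with fly totals) with 81 of 81 members and 51.5% of all genes positive. Of the members 0 passed by edgeR or DESeq2, where 15.7% of all genes were called by edgeR (1107 higher and 2166 lower, or 578 and 3204 with fly totals). An unadjusted p under 0.05 was found for 1 member (RPL22) and 28.4% of all genes. With the replicate number as a block 53 members were called, all higher, and 8466 of all genes.

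PAF1-AID cells at 6 h had 76 of 81 positive values and a median of 0.15 beside 0.02 over all genes, but -0.23 beside -0.37 with fly totals; 51.7% of all genes were positive. The median was 0.0050 with 42 members positive without 0h replicate 3, and 0.34 without 0h replicate 4. None of the members passed by edgeR or DESeq2, where 10.9% of all genes were called by edgeR (873 higher and 1394 lower, or 296 and 2865 with fly totals, and 362 in all without 6h replicate 3). An unadjusted p under 0.05 was found for 2 members (RPL3L and RPL36A) and 25.5% of all genes. With the replicate number as a block 20 members were called, 18 higher and 2 lower, and 7958 of all genes. RPL3L was at 3.59 and 3.55 CPM at 6 h against 2.01 and 2.55 CPM at 0 h (0.65 ± 0.25, edgeR adjusted p = 0.134, or 0.00705 with the block). RPS27L, a p53-responsive paralog of RPS27, was at 25.6 and 24.97 CPM against 25.1 and 27.3 CPM (-0.05 ± 0.17, adjusted p = 0.897). Both 6 h libraries lay above both 0 h libraries for 25 members and below for 2, beside 28.1% and 27.1% of all genes. At 2 h the median was 0.08 beside 0.01 over all genes (-0.14 with fly totals) and 0 members passed by edgeR or DESeq2, where 0.149% of all genes were called by edgeR. No member (0) had an unadjusted p under 0.05, against 7.39% of all genes, and 66 members were positive, against 51.6% of all genes. That median was -0.086 with 11 members positive without 0h replicate 3, and 0.23 without 0h replicate 4. Among the most negative at 2 h were RPL10L (-0.90 ± 0.58) and RPL36A (-0.38 ± 0.30), and among the most positive RPL3L (0.42 ± 0.25) and RPS10 (0.30 ± 0.30). From 2 to 6 h the median was 0.09 (-0.074 with fly totals), with 74 members and 51.3% of all genes positive. Of the members 0 passed by edgeR or DESeq2, where 0.875% of all genes were called by edgeR, and 0 had an unadjusted p under 0.05, where 13.9% of all genes did.

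The responses of the lines were compared directly. The SPT6 response exceeded the PAF1 response at 6 h by a median of 0.21 over the members, with 75 of 81 positive, beside 0.01 over all genes, of which 51.2% were positive. With fly totals it was 0.10. It was -0.17 without SPT6-AID 6h replicate 2 and 0.56 without 6h replicate 1. At 2 h the median was 0.02, with 45 members and 47.9% of all genes positive. The 2 h value ran from -0.26 without SPT6-AID 2h replicate 2 to 0.26 without SPT6-AID 0h replicate 2. At both times 0 members passed by edgeR or DESeq2, where edgeR called 3.74% of all genes at 6 h (129 higher and 649 lower, or 7 and 9 with fly totals, and 30 in all without PAF1-AID 6h replicate 4) and 0.0337% at 2 h (3 and 4, or 3 and 1 with fly totals). At both times 0 members had an unadjusted p under 0.05, against 16.2% of all genes at 6 h and 2.53% at 2 h. Before auxin, PAF1-AID cells at 0 h against SPT6-AID cells at 0 h gave a median of -0.10 (0.00 over all genes), with 14 members and 50.5% of all genes positive, but 0.023 with fly totals. Of the members 0 passed by edgeR or DESeq2, where 0.0337% of all genes were called by edgeR, and 0 had an unadjusted p under 0.05, where 6.60% of all genes did. That median was 0.14 without SPT6-AID 0h replicate 2 and 0.043 without PAF1-AID 0h replicate 3, and -0.32 and -0.28 without the other 0 h library of SPT6-AID and of PAF1-AID cells.

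Members of any level were set beside other coding genes in the same classes of coding length, so level was not matched. The coding length of members ran from 75 to 1281 bases (median 456). Among coding genes that are not members with a mean of at least 7 log2 CPM, the median log2 fold change at 6 h in SPT6-AID cells was 0.29 under 500 bases (112 genes), 0.17 from 500 to under 1000 (325 genes), 0.06 from 1000 to under 2000 (572 genes), -0.00 from 2000 to under 4000 (402 genes) and -0.18 at 4000 or more (166 genes). With a mean of at least 3 log2 CPM instead, the others had 0.19 (737 genes), -0.06, -0.23, -0.30 and -0.42 in the same classes. Members had 0.39 under 500 bases (49 genes), 0.34 from 500 to under 1000 (29 genes) and 0.33 above (3 genes). In PAF1-AID cells at 6 h the others with at least 7 log2 CPM had 0.19, 0.18, 0.16, 0.17 and 0.13, and members 0.14, 0.15 and 0.25. The replicate difference in SPT6-AID cells also followed length: 0.60, 0.52 and 0.44 for members and 0.21, 0.10, 0.05, 0.05 and -0.07 for the others with at least 7 log2 CPM. At 6 h in SPT6-AID cells the median was 0.38 for the 46 members with a C and at least 4 pyrimidines at the RefSeq start. It was 0.34 for the 18 without them at that base. The 18 include members such as RPL10A and RPS26, whose run of pyrimidines begins just after that base. The split therefore does not separate TOP mRNAs from others. The 28 members with a snoRNA gene inside their span had 0.36 and the other 53 had 0.37. The part of length in these values was not tested.

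**Figure D4:**
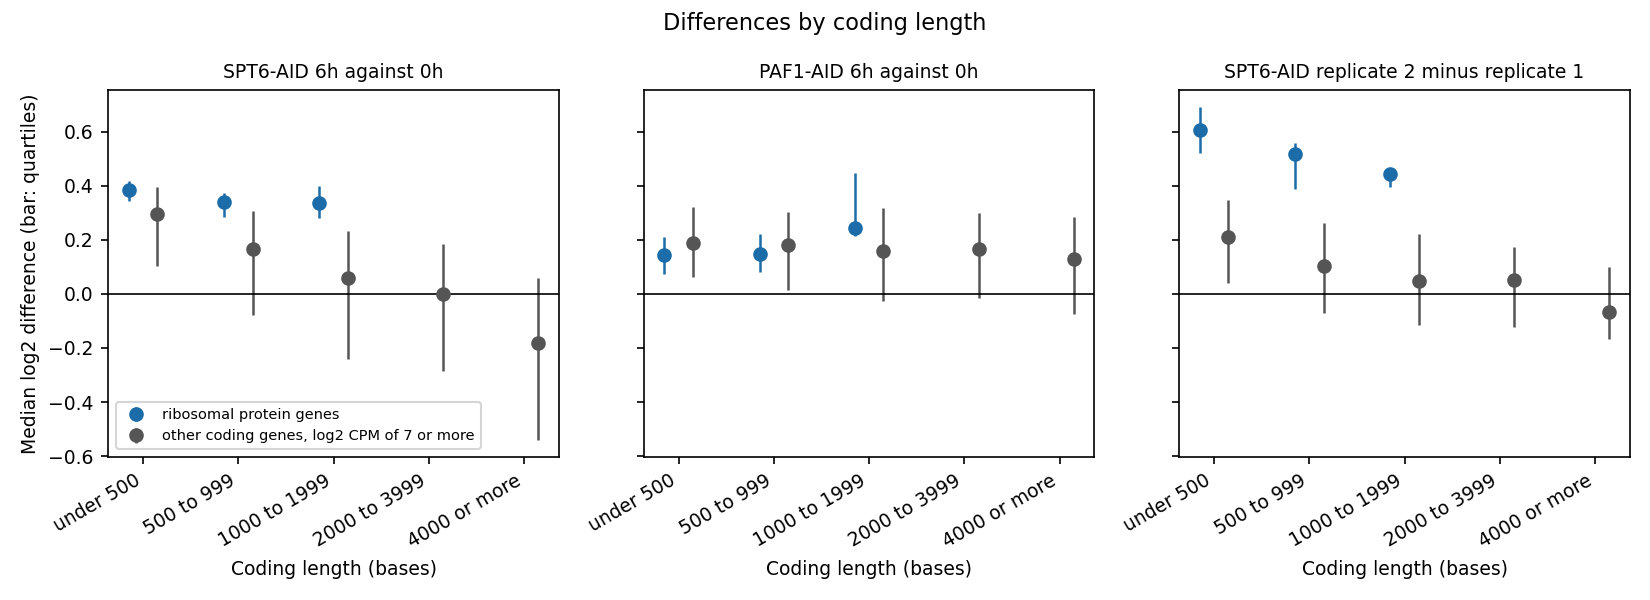
Median log2 difference by coding length (bars, quartiles) for members (blue) and for other coding genes with a mean of at least 7 log2 CPM (grey): SPT6-AID 6h against 0h, PAF1-AID 6h against 0h, and SPT6-AID replicate 2 minus replicate 1. In the left panel the other genes run from 0.29 for the shortest to -0.18 for the longest, while the middle panel is nearly flat; values are TMM-scaled, and with fly totals the medians over all 81 members at 6 h are negative (-0.10 in SPT6-AID and -0.23 in PAF1-AID cells).

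Lists of genes that act with the ribosomal proteins were read from the same fit, and the genes named are those with the smallest p. At 6 h in SPT6-AID cells, of 12 dedicated chaperones and late assembly factors, 4 fell and 0 rose, with a median of -0.17, where 16.4% of all genes were called lower and 8.76% higher. GRWD1, the chaperone of RPL3, was at 26.8 to 31.1 CPM at 6 h against 109 to 110.4 CPM at 0 h in SPT6-AID cells and fell by 1.92 ± 0.13 (log2 ± SE, edgeR adjusted p = 6.00e-05). In PAF1-AID cells it was at 93.1 to 100.2 CPM at 6 h against 98.4 to 110.8 CPM at 0 h (-0.11 ± 0.13, edgeR adjusted p = 0.647). PDCD2L, LTV1 and HEATR3 fell by 1.06, 0.87 and 0.59, and each lost its call without SPT6-AID 0h replicate 2 and without 1 of the 6 h libraries.

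Of 7 ribosome proteins and paralogs outside the name pattern, 1 fell. RPL7L1, a nucleolar paralog of RPL7, was at 138 to 149 CPM at 6 h against 235 to 277 CPM at 0 h in SPT6-AID cells and fell by 0.83 ± 0.12 (edgeR adjusted p = 0.000931). It fell in PAF1-AID cells too, by 0.72 ± 0.12 (adjusted p = 0.00575, or 0.0700 without PAF1-AID 6h replicate 3). FAU, which encodes a small subunit protein fused to a ubiquitin-like one, had 0.49 ± 0.24 in SPT6-AID cells and did not pass (edgeR adjusted p = 0.166). Of 19 other TOP mRNAs tested, only EIF3A passed, and it fell by 0.75 (adjusted p = 0.00663, or 0.0541 without SPT6-AID 0h replicate 2). Over all genes 25.2% were called. The median of the 19 was 0.24, and EEF1A1, the most abundant of those named here, had 0.33 ± 0.27 at 6 h.

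Of 14 genes of the LARP1 and mTOR complex 1 arm, 1 rose and 4 fell in SPT6-AID cells at 6 h, with a median of -0.06, where 8.76% of all genes were called higher and 16.4% lower. RPTOR, the scaffold of mTOR complex 1, was at 22.1 to 36.5 CPM against 63.9 to 74.1 CPM and fell by 1.23 ± 0.20 (edgeR adjusted p = 0.00157). RPS6KB1, the S6 kinase, was at 18.2 to 22.2 CPM against 35.4 to 40.1 CPM and fell by 0.90 ± 0.15 (adjusted p = 0.00153). LARP1 fell by 0.49 (0.0201), a call lost without either 0 h library or 6h replicate 2, and AKT1S1 rose by 0.54 (0.00743), which was lost with fly totals (0.655) and without 0h replicate 2. Of 8 transcription factors reported at ribosomal protein promoters 5 fell, where 16.4% of all genes were called lower, with a median of -0.65: the 4 with the smallest p were TBP (-1.35 ± 0.23), SP1 (-1.0004 ± 0.14), MAX (-0.62 ± 0.11) and GABPB1 (-0.67 ± 0.20). GABPB1 lost its call without 0h replicate 2, either 6 h library or either PAF1-AID 6h library. In PAF1-AID cells SP1 and GABPB1 fell by 0.64 and 0.83, calls that were each lost in 3 of the 12 leave-outs, and RPS6KB2 rose by 0.48 (adjusted p = 0.0490), a call lost in every leave-out.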

How the data were processed

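Poly(A) RNA from 12 libraries of DLD-1 cells was measured: 6 groups of 2. The submitters' processing notes name cutadapt (1.14), STAR (2.7.5), featureCounts (2.0.0) and the genome builds GRCh38 and BDGP6. The deposited values are raw counts for each gene, to which the authors applied no normalization as far as the whole-number values show, with a gene and a transcript length beside them. The strand setting and the treatment of reads with several matches are not given in the sources used here, and reads are from a directional kit per the labels' protocols.

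Human genes passing filterByExpr were scaled by TMM and fitted with group means over 12 libraries (6 residual degrees of freedom, edgeR 4.0.16 in R 4.3.3, quasi-likelihood test). The Benjamini-Hochberg adjustment ran over every gene in the fit, with a threshold of 0.05. The standard error is the absolute log2 fold change over the square root of F. Every column of values was used. Libraries of a group differed by more than sampling noise (chi-square per degree of freedom 37.7 to 69.9). The fit was tested on simulated counts of genes that had passed the filter, with no difference shared by replicate number. Gene spans, exons and coding lengths came from GENCODE 29, which held all 81 members by ID.

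The members, lists and rule for named genes were chosen with earlier results of these data known. Genes are named by that rule: members that passed, the 3 most positive and negative in each comparison with 0 h, the 5 highest and lowest in level, the listed paralogs, stalk genes and RPS6, RPL5 and RPL11, and up to 4 passing genes per list; some genes that met it are not reported here. The share of fly counts in fly ribosomal protein genes was planned but could not be computed, since fly rows carry no gene names. Alternatives were DESeq2's size factors, fly totals, no filter, DESeq2 1.42.0, the replicate number as a block, pseudogene rows added, and leaving out each of 12 libraries. How fly material was added is not given in the sources used here. Levels per coding length, medians by length class and medians relative to all genes were added after the data were seen.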

Additional observations from a re-analysis of the deposited data

Results flagged for a closer look

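Groups of 2 libraries are too small for a check of single outlying libraries. Of the 81 members 0 passed the edgeR test of the difference between the lines (0 also at an unadjusted p under 0.05 and by DESeq2). At 6 h of auxin 1 of 12 chaperones and assembly factors, 1 of 14 LARP1 and mTOR genes and 1 of 8 transcription factors passed. In the other related lists 0 of 7 and 0 of 19 did, where 3.74% of all genes were called. The SPT6 response minus the PAF1 response was -1.81 (log2) for GRWD1 (edgeR adjusted p = 0.00338), a call kept in all 12 leave-outs. It was -1.17 for RPS6KB1 (adjusted p = 0.0186), a call kept in 5 of the 12 leave-outs (0.0805 at most) and lost with fly totals (0.152). It was -0.78 for MAX (adjusted p = 0.0289), a call kept in 1 of the 12 leave-outs (0.126 at most) and lost with fly totals (0.232).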

How the results depend on the processing

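With fly totals as library sizes the members' median was -0.10 for SPT6-AID 6h against 0h, -0.064 for 6h against 2h and -0.23 for PAF1-AID 6h against 0h. In each of the 6 h against 0 h comparisons 1 member passed (lower), where 6800 of all genes did in SPT6-AID and 3161 in PAF1-AID cells. In PAF1-AID cells the member was RPL36A (-1.13, edgeR adjusted p = 0.0296). Most members were then negative: 5 of 81 were positive for SPT6-AID 6h against 0h and 2 of 81 for PAF1-AID 6h against 0h. Values of named members that had been positive and turned negative included RPL22 (-0.017 at 2 h and -0.079 at 6 h after SPT6 depletion, -0.33 at 6 h after PAF1 depletion) and RPL17 (-0.40). With no filter 4 members passed in SPT6-AID 6h against 0h (3 higher and 1 lower), where 5781 of all genes did. By DESeq2 1 member passed in SPT6-AID 2h against 0h (lower), where 509 of all genes did. With pseudogene rows added 0 passed, and RPL36A (0.088) turned positive.

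Leaving out each library gave 0 to 8 members called in SPT6-AID 6h against 0h and 0 to 2 in 6h against 2h. The medians ran from -0.017 to 0.71 and from -0.11 to 0.61 in these, and from -0.17 to 0.56 for the difference between the lines at 6 h. Single values ran from -0.52 to 0.56 for RPL17 and -0.48 to 0.034 for RPL36A in SPT6-AID cells, and from -0.11 to 0.016 for RPS27L in PAF1-AID cells. The lone library was assumed to vary like the other groups. A left-out library also makes the replicate numbers unequal, so these ranges include the difference between replicates.

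Same-numbered libraries of a line deviated together (correlation of deviations over genes 0.57 to 0.66 in SPT6-AID and 0.49 to 0.53 in PAF1-AID cells), but there are only 2 numbers per line and the labels do not say that they mark a shared culture. With the replicate number as a block, members called were 2 (SPT6-AID 2h against 0h, both lower), 73 (6h against 0h, 72 higher and 1 lower), 53 (6h against 2h, all higher), 20 (PAF1-AID 6h against 0h, 18 higher and 2 lower) and 3 (difference at 6 h, 2 higher and 1 lower); PAF1-AID against SPT6-AID at 0 h shares no number and has no such fit. Over all genes the calls were 114 in SPT6-AID 2h against 0h, but 33 with fly totals, 380 with no filter, 509 by DESeq2 and 1613 with the block. In SPT6-AID 6h against 0h they were 5230, or 10683 with the block, and in 6h against 2h 3273, or 8466. In PAF1-AID 2h against 0h they were 31, 2, 274, 270 and 1452 in the same order, in 6h against 2h 182, 0, 663, 884 and 4172, and in 6h against 0h 2267, or 7958 with the block. For the difference at 2 h they were 7, 4, 34, 57 and 240, at 6 h 778, 16, 1330, 1366 and 4513, and for the lines at 0 h 7, 0, 317 and 87. Leaving out each library gave 7 to 143, 3189 to 5310 and 1119 to 3183 calls in SPT6-AID cells (2h against 0h, 6h against 0h, 6h against 2h), 0 to 37, 362 to 2439 and 0 to 267 in PAF1-AID cells, 0 to 7 and 30 to 1061 for the difference at 2 and 6 h, and 0 to 3 for the lines at 0 h. The cause was not tested.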
